A study of Mus musculus with 10 samples.

Results

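The pilot cohort comprised 4 of the 10 libraries of the series, 2 of microglia from the midbrain (Mdb) and 2 of microglia from the striatum (Str), and was chosen by the word pilot in the library titles. The mice were C57BL/6 males, aged 3 months, untreated and kept under normal housing. After perfusion, tissue of each region was digested with papain, separated on Percoll and passed over magnetic beads against CD11b, an integrin chain of myeloid cells, a selection that yields mostly microglia and can also take other CD11b-positive cells. Nothing in the labels ties a library to a mouse. The paper describes the microglial transcriptome of both regions for its mice, so a midbrain and a striatum library may share a mouse. The main test treated the libraries as independent, and p-values measured only the spread between these libraries. The other 6 libraries belonged to a second cohort, in which the labels of 2 libraries name both regions and 4 libraries, 2 per region, were of settled region.

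Microglia are the resident macrophages of the brain. In the healthy adult they carry a homeostatic programme of receptors and secreted proteins, kept up by transcription factors such as Sall1 and by TGF-beta, and they sense injury and microbes through pattern recognition receptors that lead to cytokines such as interleukin-1 beta and to chemokines. Peptides are shown to CD4+ T cells on MHC class II, which most microglia hold at low levels and which the macrophages of the meninges and perivascular spaces carry more often. The comparison asked whether microglia of the midbrain, the region that holds the dopamine neurons of the substantia nigra, differed in basal immune state from those of the striatum, the target of these neurons.

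Reads were counted at the 3′ ends of transcripts over 53715 genes. The midbrain libraries held 5651084 and 5478677 counts and the striatum libraries 4936234 and 8463782. The limit that a count of 0 allows, 3 counts, stood at 0.522, 0.551, 0.581 and 0.378 CPM (counts relative to library size, scaled by edgeR's TMM factors) in the same order, which covers counting error only. Of all genes, 14972 passed the filter on low counts and were tested with voom and limma, and a gene was called at an unadjusted p under 0.01, the threshold of the study. All 20 homeostatic microglial genes of the marker list passed the filter, each with at least 100 counts in every library. Markers of neurons were low, with a summed level of 147 to 268 CPM over 24 genes, and Th and Slc6a3, which define dopamine neurons, had at most 2 counts in any library. Fold changes are given on the log2 scale, midbrain over striatum, ± the standard error from limma.

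The libraries of the striatum were less alike than those of the midbrain. Of the variance in log2 CPM over the 14972 tested genes, 43.5% lay between the regions, 36.8% between the striatum libraries and 19.7% between the midbrain libraries. The first principal component, with 51.9% of the variance, placed the midbrain libraries at 32.7 and 28.3, Str replicate 1 at 1.47 and Str replicate 2 at −62.4. Str replicate 2 was the deepest library and the farthest from the other 3. Among genes with at least 100 counts in a library of the region, 417 of 8119 (5.14%) lay over 2-fold apart in the striatum, 315 of them higher in replicate 1, against 48 of 7474 (0.642%) in the midbrain.

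Astrocyte and mitochondrial genes showed this gap in the striatum. The summed level of 19 astrocyte genes was 2327 and 2851 CPM in the midbrain and 2689 and 919 CPM in the striatum. In bulk libraries, fewer cells of a type and less RNA per cell cannot be told apart. Genes of the mitochondrial genome followed the same order, with a sum over 13 genes of 1347 and 1742 CPM in the midbrain and 1786 and 472 CPM in the striatum. Single genes of other kinds were low in Str replicate 2 as well. B2m, the light chain of MHC class I, was at 2708 and 3140 CPM in the midbrain and 2488 and 509 CPM in the striatum. Rps25, a ribosomal protein whose gene overlaps Trappc4 and Ccdc84 on the other strand, was at 265 and 237 CPM in the midbrain and 174 and 11.3 CPM in the striatum. Among genes with at least 100 counts in either striatum library, the 6 with the widest gap were Atp13a4, Hspa1b, Rps25, mt-Co1, Cyp2j6 and Etnppl, and only Hspa1b of these was higher in replicate 2. Hspa1b and Hspa1a, inducible heat shock proteins of near-identical sequence whose reads can be split unevenly, were high in both replicate 2 libraries, Hspa1b at 56.9 and 761 CPM in the midbrain and 105 and 1796 CPM in the striatum. Hspa1a was at 63 and 404 CPM in the midbrain and 62.5 and 564 CPM in the striatum. Within the midbrain, replicate 1 was higher in Ttr, the transthyretin of the choroid plexus, at 4216 and 466 CPM, and in Pomc, the precursor of melanocortins, at 815 and 41 CPM. Cyp2f2 was also higher in replicate 1 and Ccn3 in replicate 2, which completed the 6 widest gaps of the midbrain with Hspa1a and Hspa1b. Haemoglobin genes, whose source was not tested, were higher in replicate 1 of both regions. Hbb-bs was at 4943 and 1846 CPM in the midbrain and 3578 and 1061 CPM in the striatum. Pomc, with a log2 fold change of 3.12 ± 1.27, and Rps25, with 2.68 ± 0.88, were not called. Both were called with the replicate number as a block, at 3.51 ± 0.52 for Pomc and 2.26 ± 0.62 for Rps25 (adjusted p of 0.05 and 0.276 by limma).

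**Figure D1:**
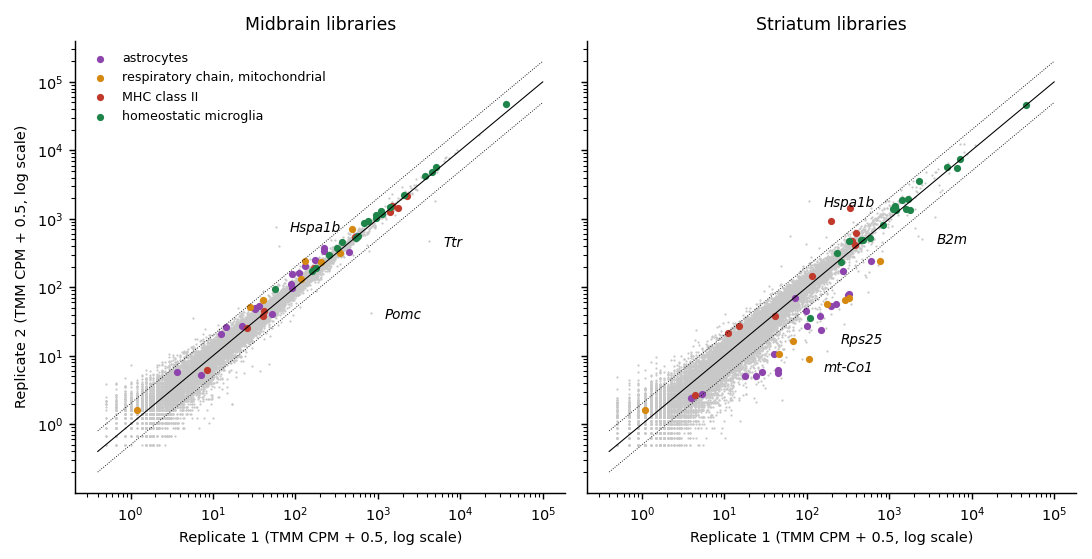
Level of each tested gene in replicate 1 (x axis) against replicate 2 (y axis) of the midbrain (left) and of the striatum (right), in TMM CPM plus 0.5 on log scales. The solid line marks equal levels and the dotted lines a 2-fold gap, beyond which lay 48 midbrain and 417 striatum genes of at least 100 counts; MHC class II genes are red and homeostatic genes dark green, and most astrocyte (purple) and mitochondrial (orange) genes of the striatum fell below the line.

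Between the regions, 395 of the 14972 tested genes were called (2.64%), of which 313 had the midbrain as the higher side (2.09%) and 82 the striatum (0.548%). The genes higher in the midbrain were further apart, with a median fold of 2.58 and a range of 1.52 to 26.9, and 242 of the 313 were 2-fold or more higher. Those higher in the striatum had a median fold of 1.72 and a range of 1.49 to 17.5, and 19 of the 82 reached 2-fold. Above 4-fold stood 71 and 4 genes, and fitted folds of this size include genes at the floor in the lower region, whose fold is not set by the data. Over all tested genes the median log2 fold change, always midbrain over striatum, was 0.018. In all 395 genes both libraries of one region lay above both of the other. That alone is common here, as 3139 tested genes had both midbrain libraries on top and 3221 both striatum libraries, and an exact permutation test of 2 against 2 libraries cannot give a two-sided p below 0.333. With Benjamini-Hochberg adjustment over all tested genes, 1 gene, Il1b, had an adjusted p under 0.05 (limma), while 1626 genes had an unadjusted p under 0.05.

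The count of called genes depended on single libraries. Leaving out Str replicate 2 gave 610 called genes (482 with the midbrain on top, 128 with the striatum) and leaving out Str replicate 1 gave 2445 (1325 and 1120), with 303 and 2269 genes at an adjusted p under 0.05 (limma). Leaving out Mdb replicate 1 gave 108 (99 and 9) and leaving out Mdb replicate 2 gave 196 (182 and 14). In these fits a lone library was assumed to vary as the pair of the other region did. None of the 395 genes turned direction in them. That was set in advance, as both libraries of one region lay above both of the other in all 395 genes.

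**Figure D2:**
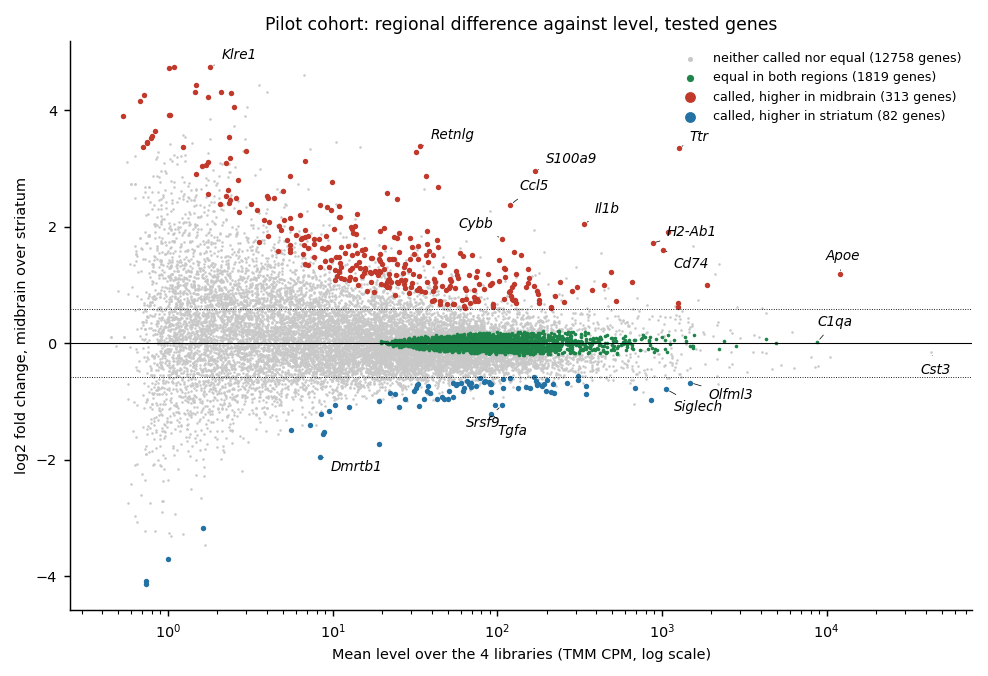
Log2 fold change of midbrain over striatum (y axis) against the mean level over the 4 libraries in TMM CPM (x axis, log scale) for the 14972 tested genes, with the 313 genes called higher in the midbrain in red, the 82 called higher in the striatum in blue and the 1819 equal genes in green. Dotted lines mark a 1.5-fold difference. Il1b, H2-Ab1 and Apoe lay far above 0 at high levels, while C1qa lay near 0.

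Il1b (ENSMUSG00000027398.13, chr2:129364570-129371139 of GRCm38), the gene of interleukin-1 beta, the cytokine released by inflammasome activation, had the smallest p of all genes. It was at 572 and 513 CPM in the midbrain and 148 and 116 CPM in the striatum. The midbrain libraries lay close together and both were far above both striatum libraries, for a log2 fold change of 2.05 ± 0.19 with an adjusted p of 0.0271 (limma). Over the 12 alternatives the log2 fold change of Il1b ranged from 1.87 to 2.23. Il1b overlaps the antisense gene Il1bos, and as strand was not used in counting, reads of the pair cannot be told apart. The promoter of Il1b is shown because no other gene passed the adjustment. It holds a TATA box, searched as TATAAA on both strands and given in capitals, 31 bases before the start. These letters occur in 12.4% of the 32851 promoter stretches of 250 bases in the RefSeq table (GRCm38.p6).
Il1b, chr2:129371140-129371389, minus strand: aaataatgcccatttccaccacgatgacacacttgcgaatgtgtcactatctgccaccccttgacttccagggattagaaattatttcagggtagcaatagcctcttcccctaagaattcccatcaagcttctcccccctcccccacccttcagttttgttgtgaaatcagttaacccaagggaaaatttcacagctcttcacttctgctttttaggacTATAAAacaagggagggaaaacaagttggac

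The rest of the interleukin-1 system was mostly not called. Of its 18 tested members, 2 were called higher in the midbrain, Il1b and Il1r2, against 2.09% of all tested genes. The median log2 fold change was 0.41 beside 0.018 over all genes. Il1r2, the decoy receptor that binds interleukin-1 without signalling and also a marker of neutrophils, was at 5.74 and 8.08 CPM in the midbrain and 1.16 and 1.13 CPM in the striatum, low but without overlap. Nlrp3, the sensor of the inflammasome, was at 189 and 261 CPM in the midbrain and 132 and 167 CPM in the striatum with a log2 fold change of 0.58 ± 0.21, and was not called. Pycard, its adaptor, was at 292 and 348 CPM in the midbrain and 334 and 539.6 CPM in the striatum. Gsdmd, the pore former that lets interleukin-1 beta out, was at 249 and 298 CPM in the midbrain and 303 and 373 CPM in the striatum. In both of these the striatum was the higher side, with log2 fold changes of −0.41 and −0.30, and neither was called. Aim2, a sensor of DNA, was at 123 and 119 CPM in the midbrain and 112 and 172 CPM in the striatum. Il1a, the other agonist ligand, was at 39.7 and 88.4 CPM in the midbrain and 53 and 36.3 CPM in the striatum. In both of these the regions overlapped.

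MHC class II genes were higher in the midbrain. All 10 tested members had a positive log2 fold change (H2-Oa at 0.0031). In 8 of them both midbrain libraries were on top, as in 3139 of the 14972 tested genes. Of the 10, 4 were called higher in the midbrain, against 2.09% of all tested genes. The median log2 fold change of the 10 was 1.36, and it was 1.36 without Str replicate 2 and 0.70 without Str replicate 1. H2-Ab1 (chr17:34263209-34269418), the beta chain of the I-A molecule, was at 1410 and 1278 CPM in the midbrain and 355 and 470.4 CPM in the striatum, for a log2 fold change of 1.72 ± 0.20 and an adjusted p of 0.0536 (limma). Cd74, the invariant chain that escorts class II to the endosome, was at 1483 and 1552 CPM in the midbrain and 399 and 628 CPM in the striatum, for a log2 fold change of 1.6 ± 0.23. Ciita, the transactivator on which transcription of the family depends, was at 40.7 and 45 CPM in the midbrain and 10.7 and 21 CPM in the striatum, for a log2 fold change of 1.44 ± 0.31. Each of these 3 genes showed a clear gap between the regions, with the lower value in Str replicate 1. Border macrophages also carry class II, and the summed level of 17 of their marker genes was 2668 and 2266 CPM in the midbrain and 1140 and 1625 CPM in the striatum, lowest in Str replicate 1 as well. Their part in the difference was not tested.

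H2-Eb1 and H2-Aa varied most within the striatum. H2-Eb1, the beta chain of I-E, was called (log2 fold change 1.91 ± 0.57) at 1760 and 1451 CPM in the midbrain and 195 and 934 CPM in the striatum, and its striatum libraries differed more from each other than Str replicate 2 did from the midbrain. H2-Aa, the alpha chain of I-A, was not called (log2 fold change 1.66 ± 0.53) at 2256 and 2137 CPM in the midbrain and 336 and 1450 CPM in the striatum. The members that load peptides moved less. H2-DMa was at 528 and 546 CPM in the midbrain and 380.5 and 414 CPM in the striatum and H2-DMb1 at 168 and 188 CPM in the midbrain and 115 and 145 CPM in the striatum, both without overlap and not called. H2-Oa, an inhibitor of loading, was equal in both regions, as defined below, at 40.2 and 37.5 CPM in the midbrain and 40.7 and 37.4 CPM in the striatum (95% interval of the log2 fold change −0.46 to 0.46). Class II genes share sequence, so reads of polymorphic members can be lost or split by the counting.

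H2-Aa and H2-Eb1 are shown with their promoters because they had the highest levels of the class II chains. Both hold the core of the class II Y box, searched as CTGATTGG on both strands and given in capitals, starting 51 and 62 bases before the annotated start. These letters occur in 3.83% of the 32851 promoter stretches of 250 bases and in 4 of the 8 class II genes that had an entry, H2-Aa, H2-Eb1, H2-Eb2 and H2-Oa.
H2-Aa, chr17:34287824-34288073, minus strand: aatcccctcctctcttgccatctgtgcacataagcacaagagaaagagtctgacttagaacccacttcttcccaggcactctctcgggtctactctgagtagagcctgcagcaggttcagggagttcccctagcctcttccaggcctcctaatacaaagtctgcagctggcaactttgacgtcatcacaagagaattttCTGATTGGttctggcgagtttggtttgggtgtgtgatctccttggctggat
H2-Eb1, chr17:34305617-34305866, plus strand: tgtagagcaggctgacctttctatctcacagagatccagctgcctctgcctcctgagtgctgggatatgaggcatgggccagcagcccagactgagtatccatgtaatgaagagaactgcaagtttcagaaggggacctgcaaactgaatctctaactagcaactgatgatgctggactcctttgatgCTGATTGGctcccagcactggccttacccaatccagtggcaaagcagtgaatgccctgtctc
The letters are a description of these stretches, and H2-Oa, which was equal in both regions, holds them too.

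Class I did not follow class II. Of 22 tested genes of class I and its peptide loading, 0 were called (limma; 2 at an unadjusted p under 0.05, and 0 called by edgeR or DESeq2) and 8 were equal, with a median log2 fold change of 0.042. H2-K1, a classical heavy chain, was equal at 629.7 and 642 against 494 and 768 CPM, with a log2 fold change of 0.048 (95% interval −0.46 to 0.56). H2-D1, the other classical heavy chain, was at 949.8 and 945 CPM in the midbrain and 627 and 808 CPM in the striatum, above the striatum in both libraries but not called (log2 fold change 0.41 ± 0.19). Calr, the chaperone of the loading complex, was equal at 688 and 720 against 702 and 835 CPM. B2m stood apart in Str replicate 2, as given above, with a log2 fold change of 1.36 ± 0.57 that was not called. Heavy chain genes are paralogs of near-identical sequence, and their split counts are uncertain. Of 14 tested co-stimulatory and checkpoint genes, Btla, Cd40 and Cd83 were called higher in the midbrain, against 2.09% of all tested genes. The list leaned the other way, with 9 of the 14 higher in the striatum and a median log2 fold change of −0.24. In 8 of the 14 both striatum libraries were on top, as in 3221 of the 14972 tested genes. Cd83, a maturation marker that stabilises class II on the surface, was at 262 and 372 CPM in the midbrain and 193 and 191 CPM in the striatum. Cd40, the receptor for the T cell ligand CD154, was at 17.4 and 14.5 CPM in the midbrain and 6.78 and 7.93 CPM in the striatum. The midbrain libraries were on top in both, as in every gene called higher in the midbrain. Cd86, a ligand of CD28, was at 67.2 and 78.1 against 87.5 and 79.5 CPM and was not called. Vsir, which encodes the checkpoint protein VISTA, was lower in both midbrain libraries at 1689 and 1806 CPM than in the striatum at 2349 and 2837 CPM, and was not called (log2 fold change −0.56 ± 0.19).

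Chemokine ligands were higher in the midbrain where they were called. Of 14 tested CC ligands 3 were called, Ccl5, Ccl12 and Ccl24, and of 12 CXC and other ligands 2 were called, Pf4 and Cxcl3, against 2.09% of all tested genes, and 13 of the 14 and all 12 had a positive log2 fold change. Ccl5, a ligand of Ccr1, was at 216 and 185 CPM in the midbrain and 23.6 and 56.8 CPM in the striatum, for a log2 fold change of 2.38 ± 0.33. Ccl12, a ligand of Ccr2, was at 186 and 190.5 CPM in the midbrain and 75.9 and 54.1 CPM in the striatum, for a log2 fold change of 1.57 ± 0.20. Pf4, a marker of border macrophages and platelets, was at 738 and 614 CPM in the midbrain and 218 and 384 CPM in the striatum. In these 3 genes the gap between the regions exceeded the gap within either. Ccl3 and Ccl4, which dissociation of brain tissue is known to raise in microglia, were not called. Ccl3 was at 1226 and 1561 CPM in the midbrain and 1079 and 1469 CPM in the striatum and Ccl4 at 996 and 1001 CPM in the midbrain and 715 and 1226 CPM in the striatum, and in both the regions overlapped. Ccl2, Ccl7 and Cxcl2 were low in Str replicate 1 alone. Ccl2, which draws Ccr2-bearing monocytes, was at 487 and 693 CPM in the midbrain and 168 and 546 CPM in the striatum. Cxcl2, which draws neutrophils, was at 508 and 690.2 CPM in the midbrain and 97.2 and 421 CPM in the striatum. None of the 3 was called. Without Str replicate 1 the median log2 fold change of the CC ligands was 0.06, against 0.95 with all libraries and 1.13 without Str replicate 2.

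Of 15 tested chemokine receptors, Ccr1, Ccr2, Cxcr2 and Cxcr4 were called higher in the midbrain. Ccr2, the receptor that brings monocytes out of the marrow, was at 48 and 44.3 CPM in the midbrain and 13 and 16 CPM in the striatum, for a log2 fold change of 1.65 ± 0.24. Cxcr4, the receptor of Cxcl12, was at 25.2 and 16.4 CPM in the midbrain and 2.9 and 7.81 CPM in the striatum. Cx3cr1, the fractalkine receptor that microglia carry, was at 769 and 939.9 CPM in the midbrain and 1213 and 1353 CPM in the striatum, lower in both midbrain libraries and not called (log2 fold change −0.59 ± 0.19).

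**Figure D3:**
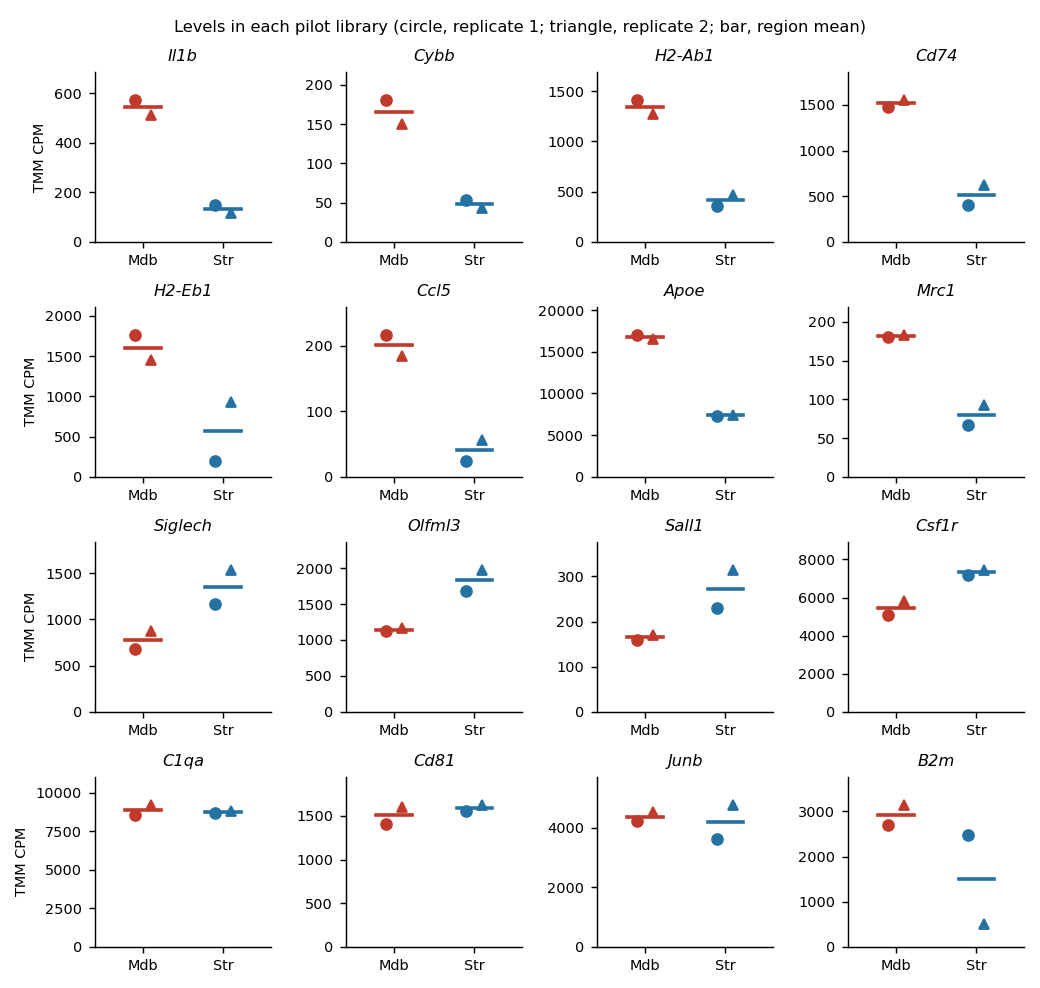
Level of 16 genes in each pilot library in TMM CPM (y axes start at 0), midbrain in red and striatum in blue, with circles for replicate 1, triangles for replicate 2 and bars for the mean of the 2 libraries. Il1b, Cybb and H2-Ab1 did not overlap between the regions, C1qa, Cd81 and Junb did, and B2m was at 509 CPM in Str replicate 2 alone.

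Cybb, the catalytic subunit of the phagocyte NADPH oxidase, was at 180.3 and 150.5 CPM in the midbrain and 52.7 and 43.7 CPM in the striatum, and its log2 fold change of 1.79 ± 0.20 had an adjusted p of 0.0536 (limma). Its partner in the membrane, Cyba, was equal in both regions at 787 and 869 against 767 and 943 CPM (95% interval −0.46 to 0.38). Of the cytosolic subunits, Ncf4 was equal at 144 and 139.8 against 124 and 127 CPM, and Ncf1 was not called, with a log2 fold change of −0.19 ± 0.20. Cybb was thus the single called gene among 8 members of the oxidase.

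Complement genes of the highest levels were not called, while 5 of lower level were. C1qa and C1qc, subunits of the recognition molecule C1q, were equal in both regions. C1qa was at 8541 and 9186 CPM in the midbrain and 8682 and 8791 CPM in the striatum. C1qc was at 4903 and 5031 CPM in the midbrain and 5274 and 4626 CPM in the striatum. C1qb was at 6749 and 8060 against 8120 and 9351 CPM, lower in both midbrain libraries, and was neither equal nor called. Called higher in the midbrain were Cfp, C4b, Serping1, C2 and Itgax, 5 of 18 tested, against 2.09% of all tested genes. Cfp, properdin, which stabilises the alternative convertase, was at 55.2 and 55.3 CPM in the midbrain and 17.8 and 23.6 CPM in the striatum. C4b, whose reads are shared with its paralog C4a, was at 116 and 94.8 CPM in the midbrain and 35.6 and 53.8 CPM in the striatum. Serping1, the inhibitor of C1, was at 17.1 and 17.6 CPM in the midbrain and 8.33 and 4.53 CPM in the striatum. The classical pathway protease C2 was at 12.5 and 11.4 CPM in the midbrain and 5.03 and 4.66 CPM in the striatum. Itgax, the CD11c chain that is also counted among disease-associated and dendritic cell genes, was at 20.4 and 14.2 CPM in the midbrain and 7.75 and 8.19 CPM in the striatum. All 5 stood without overlap, as every called gene did.

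Of 38 tested interferon-induced genes 31 had a positive log2 fold change, as 51.6% of all tested genes did, and 6 were called, against 2.09% of all, with a median of 0.44. The called genes were Ifi207, Ifitm6, Ifi204, Ifitm2, Ifitm1 and Irf7. Ifi207, of the PYHIN family, was at 33.8 and 32.1 CPM in the midbrain and 7.55 and 8.94 CPM in the striatum. Its paralog Ifi204 was at 19.1 and 23 CPM in the midbrain and 5.81 and 5.42 CPM in the striatum. Both were low and fell in tight pairs, and counts of such paralogs may be split. Irf7, the factor that amplifies type I interferon, was at 87.7 and 58.6 CPM in the midbrain and 30.4 and 43.8 CPM in the striatum. Ifitm6 is also listed as a monocyte gene and stood at 55.5 and 36.4 CPM in the midbrain and 13 and 12.8 CPM in the striatum. The best counted members were closer together, Bst2 at 515 and 502 against 362 and 495 CPM and Isg15 at 81.1 and 83.4 against 47.4 and 71.8 CPM, neither of them called, and Gbp7 was equal at 86 and 86.7 against 82.3 and 104 CPM.

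Genes of the disease-associated programme split. Of 22 tested, 7 were called higher in the midbrain, against 2.09% of all tested genes, and 3 were equal. The median log2 fold change was −0.0099. Apoe, the main lipid carrier of the brain, had the highest level of the called genes with 16990 and 16480 CPM in the midbrain and 7270 and 7446 CPM in the striatum, for a log2 fold change of 1.19 ± 0.19. The 4 libraries of Apoe fell in tight pairs. Lgals3, galectin-3, was at 185 and 131 CPM in the midbrain and 59.2 and 67.2 CPM in the striatum. Lyz2, lysozyme, was at 2626 and 2315 CPM in the midbrain and 985 and 1568 CPM in the striatum. These 2 genes are high in border macrophages and monocytes as well, whose part was not tested. Axl, a receptor for phagocytosis of dying cells, was at 82.5 and 56.2 CPM in the midbrain and 35.4 and 33.9 CPM in the striatum. Clec7a, the beta-glucan receptor dectin-1, was at 28.7 and 31.2 CPM in the midbrain and 14.9 and 13.2 CPM in the striatum. Spp1, osteopontin, was low at 17.4 and 23.5 CPM in the midbrain and 6.78 and 4.03 CPM in the striatum. The regions did not overlap in any of these, as in every called gene. Against these, Trem2, the lipid receptor on which the programme depends, was lower in both midbrain libraries at 1465 and 1745 CPM than in the striatum at 2055 and 2065 CPM and was not called (log2 fold change −0.37 ± 0.18). The cathepsins Ctsd and Ctsb were not called either. Ctsd was at 9066 and 10210 CPM in the midbrain and 11000 and 11780 CPM in the striatum, and Ctsb at 1892 and 1970 CPM in the midbrain and 1876 and 2917 CPM in the striatum.

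Among 25 tested Tnf, Il10 and NF-kB feedback genes, Bcl3, a nuclear partner of the p50 and p52 subunits, was called at 32.4 and 34.4 CPM in the midbrain and 12.8 and 19 CPM in the striatum. Of the others 7 were equal, and the median was 0.33. Nfkbia, the inhibitor that NF-kB itself induces, was at 1353 and 2046 CPM in the midbrain and 1123 and 1567 CPM in the striatum and was not called. Zfp36, which destabilises cytokine mRNA, was equal at 1327 and 1513 CPM in the midbrain and 1141 and 1542 CPM in the striatum. Toll-like receptors and adaptors had a median of −0.041 over 25 genes, 6 of them equal. Tlr12, a receptor for profilin, was called higher in the striatum at 49.6 and 57.1 CPM in the midbrain and 78.8 and 91.8 CPM in the striatum. In the midbrain direction 0 were called (limma; 2 at an unadjusted p under 0.05, 0 by edgeR and 2 by DESeq2). Cd14, the co-receptor for lipopolysaccharide, was at 959 and 1159 CPM in the midbrain and 615 and 1052 CPM in the striatum. Tlr2, a receptor for bacterial lipopeptides, was at 200.2 and 195 CPM in the midbrain and 135 and 214 CPM in the striatum. Neither was called, and both were lowest in Str replicate 1.

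Immediate early genes, which brain dissociation is known to raise, were read beside these. Of 24 tested, 5 were called higher in the midbrain, Klf4, Fosb, Klf2, Ier2 and Klf6, against 2.09% of all tested genes. Klf4 was at 375 and 429 CPM in the midbrain and 188 and 224 CPM in the striatum. Fosb, an AP-1 subunit, was at 903 and 856 CPM in the midbrain and 331 and 549 CPM in the striatum. Ier2 was at 1531 and 1563 CPM in the midbrain and 899.6 and 1024 CPM in the striatum. All 3 were lowest in Str replicate 1. The AP-1 subunits Fos and Jun were not called, Fos at 2449 and 3042 CPM in the midbrain and 1747 and 3177 CPM in the striatum and Jun at 3585 and 4323 CPM in the midbrain and 2825 and 4815 CPM in the striatum. Egr1 was not called at 1967 and 2166 CPM in the midbrain and 1380 and 2653 CPM in the striatum. In these 3 Str replicate 1 was again the lowest, and Str replicate 2 was the highest. Junb was equal at 4213 and 4536 CPM in the midbrain and 3631 and 4757 CPM in the striatum, and its gene overlaps Prdx2 on the other strand. The summed level of the 24 genes was 23260 and 27510 CPM in the midbrain and 16810 and 29010 CPM in the striatum, so it did not separate the regions. Its part in the calls of cytokine and chemokine genes was not tested.

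Homeostatic genes pointed the other way. Of the 20 tested, 19 had a negative log2 fold change, 16 without overlap, where 3221 of the 14972 tested genes had both striatum libraries on top. The median was −0.44, and 3 were called higher in the striatum, against 0.548% of all genes, Siglech, Olfml3 and Sall1. Siglech, a sialic acid binding receptor, was at 685 and 869.5 CPM in the midbrain and 1169 and 1533 CPM in the striatum, for a log2 fold change of −0.79 ± 0.21. Olfml3, a secreted protein of the extracellular matrix, was at 1119 and 1161 CPM in the midbrain and 1689 and 1972 CPM in the striatum, for a log2 fold change of −0.68 ± 0.18. Sall1, the transcription factor that maintains microglial identity, was at 159.6 and 171 CPM in the midbrain and 231 and 314 CPM in the striatum, for a log2 fold change of −0.70 ± 0.20. The median kept its sign in all 12 alternatives, from −0.52 to −0.34.

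The other homeostatic genes were not called. Csf1r, the receptor for the survival factor CSF1, was at 5064 and 5803 CPM in the midbrain and 7196 and 7434 CPM in the striatum, for a log2 fold change of −0.43 ± 0.19. Selplg, a ligand of selectins, was at 4525 and 4748 CPM in the midbrain and 6546 and 5448 CPM in the striatum. P2ry12, the ADP receptor that guides processes to damage, was at 960.4 and 1123 CPM in the midbrain and 1764 and 1355 CPM in the striatum. Tmem119, a surface protein used to tell microglia from other macrophages, was at 2101 and 2259 CPM in the midbrain and 2322 and 3611 CPM in the striatum. Each was lower in both midbrain libraries than in either striatum library, and each fold change was smaller than that of Siglech. Cst3, cystatin C and the highest of the list, overlapped at 35390 and 47070 CPM in the midbrain and 45280 and 45570 CPM in the striatum. Bin1 and Ltc4s were equal, Bin1 at 1404 and 1491 CPM in the midbrain and 1597 and 1401 CPM in the striatum. Gpr34 was the exception in sign, at 55.5 and 92.6 CPM in the midbrain and 108 and 34.9 CPM in the striatum, where Str replicate 2 was lowest. Of 18 sorting and pan-macrophage genes, Mertk, a receptor for apoptotic cells, was called higher in the striatum at 242 and 277 CPM in the midbrain and 383 and 484 CPM in the striatum, and 4 were equal, C1qa, C1qc, Aif1 and Adgre1. Itgam, the CD11b chain on which the beads were selected, was at 683 and 739.6 CPM in the midbrain and 814 and 1349 CPM in the striatum, not called and highest in Str replicate 2.

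Transcription factors of microglia had a median of −0.16 over 17 genes. Sall1 was the called gene by limma, edgeR and DESeq2, and 5 had an unadjusted p under 0.05 in the striatum direction and 0 in the other (limma). Spi1, which encodes PU.1, was higher in both midbrain libraries at 376 and 362 CPM in the midbrain and 332 and 284 CPM in the striatum, and was not called. Mef2c, Runx1, Cebpa and Batf3 were equal, Mef2c at 144 and 148 CPM in the midbrain and 162 and 126 CPM in the striatum.

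Genes of TGF-beta and purinergic signalling, which act in the homeostatic state, did not pass the threshold, and their median log2 fold changes were −0.057 and −0.12. Of 18 tested TGF-beta genes, 0 were called (limma; 2 at an unadjusted p under 0.05, 0 by edgeR, 1 by DESeq2). Tgfbr1, the type I receptor, was at 569.5 and 569.9 CPM in the midbrain and 828 and 815 CPM in the striatum, for a log2 fold change of −0.53 ± 0.17. Tgfbr2, the type II receptor, was at 198 and 198 CPM in the midbrain and 236 and 370.1 CPM in the striatum, for a log2 fold change of −0.57 ± 0.23. Both receptors were lower in each midbrain library, while Tgfb1, a ligand, was equal at 183 and 177 CPM in the midbrain and 178 and 159 CPM in the striatum. Of 17 tested purinergic receptors and ectonucleotidases, 0 were called (limma; 6 at an unadjusted p under 0.05, 0 by edgeR, 1 by DESeq2). P2ry13, a second ADP receptor, was at 315 and 371 CPM in the midbrain and 457 and 485 CPM in the striatum, and Entpd1, the CD39 enzyme that breaks down ATP, at 216 and 250.4 CPM in the midbrain and 286 and 356 CPM in the striatum. Both stood below the striatum, as P2ry12 did. Of 12 tested Fc receptor genes, Fcrl1 was called higher in the striatum at 18.3 and 25 CPM in the midbrain and 34.9 and 55.7 CPM in the striatum, and the median was −0.33. Of 21 tested cell cycle genes, 0 were called (limma; 2 at an unadjusted p under 0.05, 0 by edgeR or DESeq2), and Mki67, a marker of dividing cells, was low at 6.79 and 4.04 CPM in the midbrain and 1.16 and 3.02 CPM in the striatum.

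Beyond the lists, the 6 genes with the smallest p among those higher in the striatum were Srsf9, Tgfa, Mlph, Ikzf1, Plxna4 and Gfm2. Srsf9, a splicing factor, was at 70.1 and 67.2 CPM in the midbrain and 132 and 157 CPM in the striatum, for a log2 fold change of −1.07 ± 0.18. Tgfa, a ligand of the EGF receptor, was at 64.2 and 45.8 CPM in the midbrain and 105 and 149.5 CPM in the striatum, for a log2 fold change of −1.21 ± 0.24. Ikzf1, the haematopoietic transcription factor Ikaros, was at 63 and 69.6 CPM in the midbrain and 113 and 123 CPM in the striatum. All 3 were lowest in the midbrain and highest in Str replicate 2. Mlph, which links vesicles to myosin, was at 57.4 and 67.4 CPM in the midbrain and 108 and 153 CPM in the striatum. Plxna4, a semaphorin receptor, was at 32.2 and 42.6 CPM in the midbrain and 67.8 and 73.2 CPM in the striatum. Gfm2, a mitochondrial elongation factor, was at 108 and 115 CPM in the midbrain and 176 and 199 CPM in the striatum. Gfm2 overlaps Nsa2 on the other strand, and Plxna4 the antisense gene Plxna4os3. In each of the 6 genes the midbrain libraries lay below both striatum libraries, as their selection required, and Str replicate 2 was the highest. That held widely, as Str replicate 1 was nearer than Str replicate 2 to the midbrain mean in 75 of the 82 genes called higher in the striatum, and in 158 of the 313 called higher in the midbrain. Of called genes with at least 10 counts in both striatum libraries, leaving out symbols that are bare identifiers or model names, the 10 with the largest changes towards the striatum were Dmrtb1, Col6a3, Orc4, Hmgb1-ps5, Rbm12b1, Tgfa, Mycl, Zdhhc24, Vbp1 and Fcrl1, from 3.85-fold for Dmrtb1 to 2.11-fold for Fcrl1. Dmrtb1 was at 1.92 and 5.7 CPM in the midbrain and 12.8 and 13 CPM in the striatum. Col6a3, a collagen chain, was at 3.65 and 5.33 CPM in the midbrain and 11.8 and 14.2 CPM in the striatum. Among the best counted, and chosen after their values were seen, Ptgs1, the constitutive cyclooxygenase, was at 506 and 624 CPM in the midbrain and 864 and 1430 CPM in the striatum. Hpgds, the prostaglandin D synthase of haematopoietic cells, was at 477 and 519 CPM in the midbrain and 714 and 1025 CPM in the striatum. Cd33, a sialic acid receptor, was at 139 and 124 CPM in the midbrain and 179.7 and 259 CPM in the striatum.

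On the midbrain side, the largest changes fell on genes near the floor in the striatum. They were Klre1, Btla, Cma1, Clec4b1, Foxc2, Fpr1, Slc36a3os, Fmo2, Retnlg and Asic4. Klre1, a receptor of NK cells, held 23, 17, 0 and 1 counts in Mdb 1, Mdb 2, Str 1 and Str 2 and was at least 7.43-fold higher in the midbrain, as a mean over the floor of 3 counts per library. The same bound was 5.94-fold for Btla, an inhibitory receptor of lymphocytes, 8.41-fold for Cma1, a mast cell chymase, 6.95-fold for Foxc2, a factor of meninges and vessels, and 9.09-fold for Fmo2. It was 4.85-fold for Asic4 and 4.09-fold for Slc36a3os. Of the 313 genes, 24 had at most 3 counts in both striatum libraries. Clec4b1, a lectin of dendritic cells, held 28, 22, 4 and 0 counts and Fpr1, the formyl peptide receptor of neutrophils and monocytes, 23, 25, 8 and 0 counts. Fpr1 was called in 4 of the 11 alternatives in which it was tested. Retnlg, a resistin-like protein of neutrophils, was better counted at 68.9 and 46.5 CPM in the midbrain and 17.6 and 2.27 CPM in the striatum. Fxyd5, a regulator of the sodium pump, was among the 6 smallest p at 215 and 199 CPM in the midbrain and 66.6 and 77.7 CPM in the striatum, for a log2 fold change of 1.52 ± 0.18. Of the well counted genes, and chosen after their values were seen, Cd52, a surface antigen of leukocytes, was at 419 and 318 CPM in the midbrain and 179.5 and 215 CPM in the striatum. Tspo, the mitochondrial protein used to image neuroinflammation, was at 236 and 212 CPM in the midbrain and 129 and 138 CPM in the striatum. Vim, vimentin, was at 285 and 283 CPM in the midbrain and 136 and 191 CPM in the striatum. In all of these both midbrain libraries were above both striatum libraries, which the selection required of all but Cd52, Tspo and Vim.

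Markers of CD11b-positive cells other than parenchymal microglia moved with the midbrain. Of 16 tested border macrophage genes, 11 were called higher in the midbrain, against 2.09% of all tested genes. The median log2 fold change of the list was 1.06. Mrc1, the mannose receptor, was at 181 and 183 CPM in the midbrain and 66.8 and 92.9 CPM in the striatum. Cd163, the haemoglobin scavenger receptor, was at 168 and 132 CPM in the midbrain and 42.4 and 69.8 CPM in the striatum. Lyve1, a hyaluronan receptor, was at 70.5 and 62.8 CPM in the midbrain and 17.8 and 35.6 CPM in the striatum. All 3 were lowest in Str replicate 1. The other 8 were F13a1, Ms4a7, Pf4, Clec4n, Cd209f, Dab2, Cbr2 and Clec10a. Stab1, a scavenger receptor that microglia also make, was not called at 588 and 499 CPM in the midbrain and 431 and 551 CPM in the striatum, and Folr2 had at most 1 count in any library. The sum over the list, given beside class II above, was higher in both midbrain libraries.

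Monocyte and neutrophil genes moved with them. Of 20 monocyte genes, 10 were called higher in the midbrain, against 2.09% of all tested genes, and all 20 had a positive log2 fold change. Their sum was 1646 and 1477 CPM in the midbrain and 689 and 1035 CPM in the striatum. Ly6c2, which marks inflammatory monocytes, was at 40.9 and 35.8 CPM in the midbrain and 8.52 and 13.1 CPM in the striatum. Plac8 was at 43.3 and 34.2 CPM in the midbrain and 17 and 3.53 CPM in the striatum. Chil3, a chitinase-like protein, was at 46.6 and 28.5 CPM in the midbrain and 13.9 and 17.4 CPM in the striatum. Ccr2, Ifitm6, Hp, Ms4a4c, Fn1, Cd177 and Cd44 were the other called genes. Of 16 tested neutrophil genes, 11 were called higher in the midbrain, against the same 2.09%. The sum over 20 genes was 1690 and 1294 CPM in the midbrain and 945 and 1033 CPM in the striatum. S100a9, a subunit of calprotectin, was at 350.4 and 217 CPM in the midbrain and 97 and 15.5 CPM in the striatum. Camp, a granule peptide, was at 242 and 172 CPM in the midbrain and 98.5 and 99.6 CPM in the striatum. Mmp9, a gelatinase, was at 74.8 and 44.3 CPM in the midbrain and 12.6 and 17.2 CPM in the striatum. The others were Ngp, Retnlg, S100a8, Lcn2, Il1r2, Ltf, Cxcr2 and Cd177. Csf3r, the receptor for the growth factor of neutrophils, went the other way and was not called, at 357 and 364 CPM in the midbrain and 462 and 649 CPM in the striatum. S100a9 and Retnlg were lowest in Str replicate 2, while Camp was alike in both striatum libraries.

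Genes that define T and B cells were close to the floor, while some lymphocyte genes were not. Of 26 T and NK cell genes 15 were tested, and Nkg7 and Gzma were called higher in the midbrain, against 2.09% of all tested genes. Nkg7, a granule protein, was at 15.1 and 13.6 CPM in the midbrain and 3.87 and 4.03 CPM in the striatum. Gzma, a granzyme, was at 62.5 and 56.8 CPM in the midbrain and 12.8 and 29.9 CPM in the striatum. The chains that define T cells were near 0, with at most 1 count of Cd3e or Cd3g in any library and at most 5 of Cd3d. Of 14 B and plasma cell genes 7 were tested and 0 were called (limma; 1 at an unadjusted p under 0.05, 0 by edgeR or DESeq2), and Ms4a1, which encodes CD20, had at most 1 count. Of 4 tested mast cell genes, Hdc, the histidine decarboxylase, was called at 71.2 and 54 CPM in the midbrain and 29 and 24.9 CPM in the striatum, and Cma1 as above. Among 17 dendritic cell genes Clec10a and Itgax were called higher in the midbrain and Siglech higher in the striatum, each also on another list. The part of these cells in the other differences between the regions was not tested.

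Among the lists of cells without CD11b, some also held genes called higher in the midbrain and others held no called gene by limma. Of 9 tested genes of oligodendrocyte precursors, 4 were called higher in the midbrain, against 2.09% of all genes, C1ql1, Cspg5, Gpr17 and Neu4. The median was 1.26 here and −0.42 over the 5 members tested in the second cohort. Gpr17, which marks precursors about to differentiate, was at 14.6 and 16 CPM in the midbrain and 6.78 and 6.3 CPM in the striatum. Cspg5, a brain proteoglycan, was at 36 and 36.4 CPM in the midbrain and 21.1 and 17.1 CPM in the striatum. The list had sums over 10 genes of 268 and 264 CPM in the midbrain and 192 and 131 CPM in the striatum. Of 12 tested fibroblast and meningeal genes 5 were called higher in the midbrain, against the same 2.09%, Col1a2, Dcn, Igfbp2, Col1a1 and Fbln1. Dcn, decorin, was at 63.2 and 51.8 CPM in the midbrain and 30.2 and 2.9 CPM in the striatum. Of 11 ependymal and choroid genes Ttr was called at 4216 and 466 CPM in the midbrain and 338 and 56.9 CPM in the striatum, where Mdb replicate 1 was far above the other 3 libraries. Ttr overlaps the antisense gene Gm16090. The lists of astrocytes, mature oligodendrocytes and neurons had 0 called members by limma and edgeR. At an unadjusted p under 0.05 they had 4, 4 and 3 (limma), and DESeq2 called 1, 1 and 0. Endothelial cells and pericytes had 0 by limma, edgeR and DESeq2, with 3 and 0 at an unadjusted p under 0.05. Cldn5, a tight junction protein, and 4 other endothelial genes were equal, Cldn5 at 96.8 and 113 CPM in the midbrain and 109 and 98.1 CPM in the striatum. S100b, a calcium-binding protein of astrocytes, was at 440.5 and 323 CPM in the midbrain and 276 and 174 CPM in the striatum, while Slc1a3, the glutamate transporter of astrocytes, went the other way at 35.3 and 52 CPM in the midbrain and 70.5 and 69.4 CPM in the striatum. Neither was called. Without Str replicate 2 the median log2 fold change of the astrocyte genes went from 0.85 to −0.17 and that of the myelin genes from 0.22 to −0.11.

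**Figure D4:**
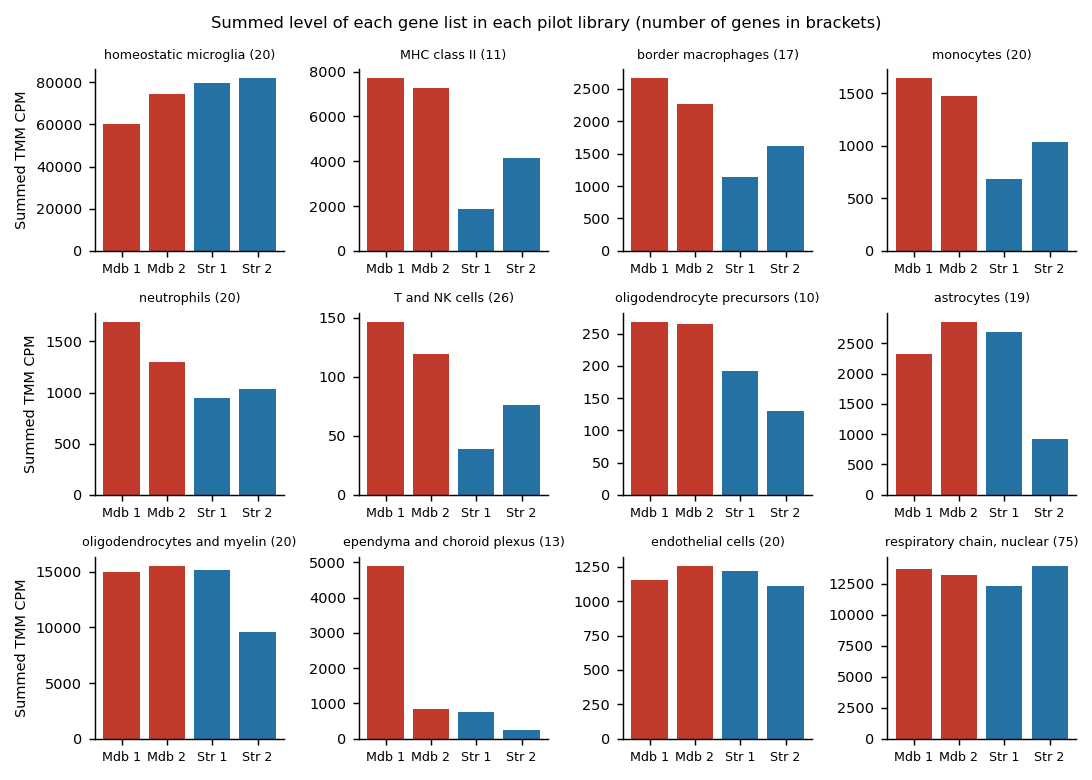
Summed level of 12 gene lists in each pilot library in TMM CPM (bars from 0), midbrain in red and striatum in blue. Sums of border macrophage, monocyte, neutrophil and MHC class II genes were higher in both midbrain libraries, the homeostatic sum was higher in both striatum libraries, and Str replicate 2 alone was low in astrocyte genes at 919 CPM.

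Genes equal in both regions were sought among the 6406 genes with at least 100 counts in all 4 libraries. Of these, 1819 (28.4%) were equal, in that the 95% interval of the fold change lay within 1.5-fold either way. Another 173 were called, and 4414 were neither, since the median distance from the estimate to either end of the interval was 0.48 on the log2 scale and left room for larger differences. The estimates themselves were small, within 1.5-fold for 91.8% of the 6406 genes and over 2-fold for 79. Equal genes were more frequent at high levels: with the genes cut into 4 groups of like size by level, 11.3% of the lowest group and 39.1% of the highest were equal. The regions overlapped in 1481 of the 1819.

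Among the equal genes of the highest level were C1qa, C1qc, Junb, Rps21, Itm2c, Gnai2, Cd81, Rpl4, Cfl1, Bin1 and Rps29. C1qa had a log2 fold change of 0.02 (95% interval −0.40 to 0.44) and C1qc of 0.0063 (−0.41 to 0.42). Itm2c, a membrane protein of the BRICHOS family, was at 2192 and 2081 CPM in the midbrain and 2140 and 2457 CPM in the striatum. Cd81, a tetraspanin, was at 1412 and 1600 CPM in the midbrain and 1554 and 1624 CPM in the striatum. The regions overlapped in both. Gnai2, the inhibitory G protein through which P2ry12 and chemokine receptors signal, was at 1773 and 1499 CPM in the midbrain and 1491 and 1477 CPM in the striatum. Cfl1, which severs actin, was at 1410 and 1600 CPM in the midbrain and 1620 and 1498 CPM in the striatum.

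The share of equal genes differed between the lists of cell machinery, beside 28.4% over all well counted genes. Of 75 nuclear genes of the respiratory chain, 69 were well counted and 39 equal, and 0 were called (limma; 3 at an unadjusted p under 0.05, 0 by edgeR or DESeq2), with a median log2 fold change of 0.056. Cox4i1, of cytochrome c oxidase, was at 849 and 783 CPM in the midbrain and 745 and 774 CPM in the striatum. Atp5b, of ATP synthase, was at 523 and 535 CPM in the midbrain and 466 and 575 CPM in the striatum. Of 30 proteasome genes 28 were well counted and 14 equal, and 0 were called (limma; 1 at an unadjusted p under 0.05, 0 by edgeR or DESeq2). Psmb4, a beta subunit of the core, was among the equal at 262 and 280.5 CPM in the midbrain and 244 and 274 CPM in the striatum. The region means of these 3 genes lay close together. Of 45 lysosomal genes 44 were well counted and 18 equal, and the one called, Ctsc, a protease that activates granule enzymes, was higher in the midbrain at 463 and 518 CPM in the midbrain and 281 and 238 CPM in the striatum. Ctss, a protease that trims the invariant chain of class II, was neither at 6591 and 7631 CPM in the midbrain and 7155 and 12550 CPM in the striatum. Ribosomal protein genes were not more often equal. Of 80, 74 were well counted and 22 equal, and 62 had a positive log2 fold change. In 31 both midbrain libraries were on top and in 1 both striatum libraries, beside 3139 and 3221 of the 14972 tested genes. An unadjusted p under 0.05 was reached by 17, all higher in the midbrain (limma). DESeq2 called 3 and edgeR 0, and by limma Rpsa was called higher in the midbrain at 1543 and 1509 CPM in the midbrain and 964 and 1019 CPM in the striatum. Ribosomal protein genes have many processed copies in the genome, so their counts are uncertain. Apoe was the called gene among 26 of cholesterol and lipid handling, where Lrp1, its receptor, was equal at 964 and 1068 against 1118 and 1126 CPM. Of the genes often used as references, Gapdh, Sdha, Gusb, Polr2a and Tubb5 were equal, Gapdh at 224 and 201 CPM in the midbrain and 202 and 197 CPM in the striatum. Actb and Hprt were neither called nor equal, Hprt at 83.7 and 92.8 CPM in the midbrain and 92.9 and 144 CPM in the striatum.

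**Figure D5:**
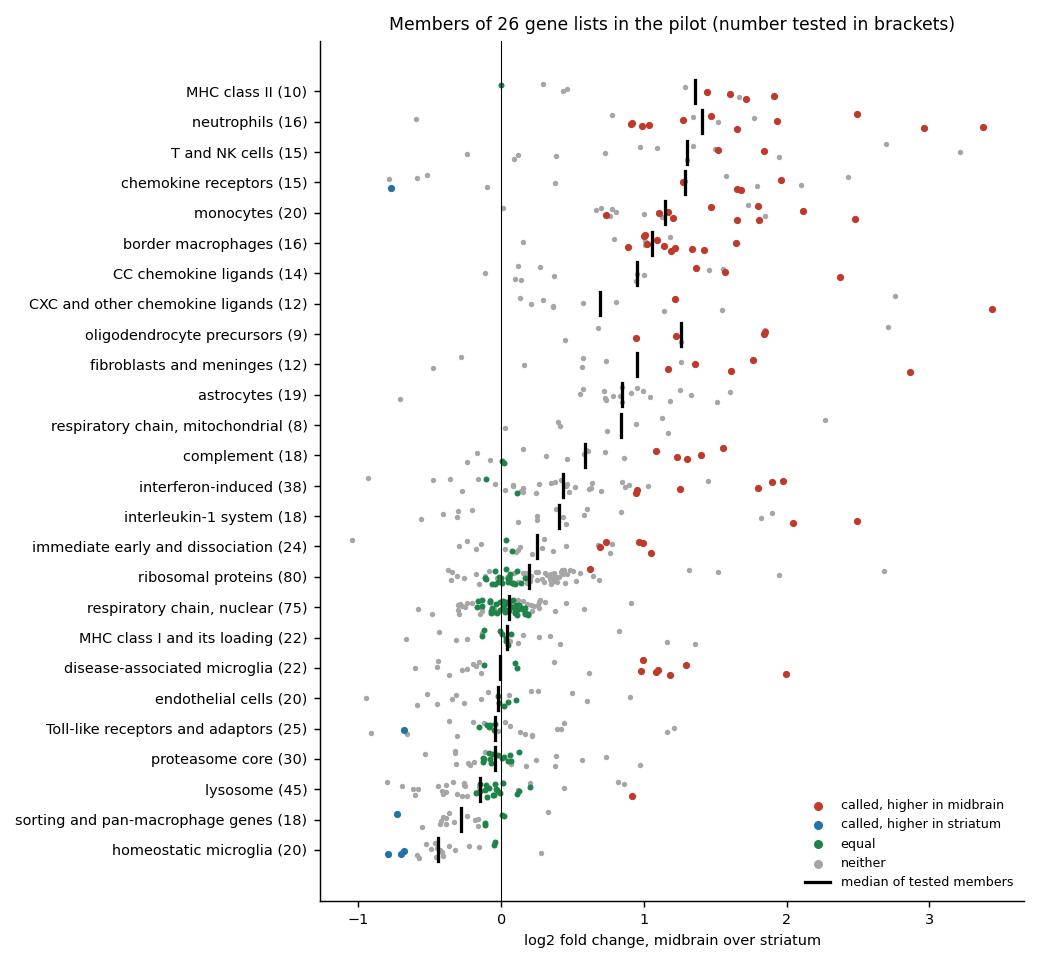
Log2 fold change of midbrain over striatum (x axis) of the tested members of 26 gene lists, with the median as a black bar, called genes in red (higher in midbrain) or blue (higher in striatum) and equal genes in green. The MHC class II median was 1.36 and the homeostatic median −0.44, and equal genes made up 39 of the 75 nuclear respiratory genes.

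The second cohort, which shares no library with the pilot, gave the same genes separate values in 2 libraries per region of 575709 to 5176234 counts. Of the 313 genes called higher in the midbrain, 278 were tested there, 260 had the same direction and 156 were called the same way. Of all 13486 genes tested in that cohort, 2.88% were called higher in the midbrain. Of the 82 called higher in the striatum, 79 were tested, 72 had the same direction and 7 were called the same way, beside a background of 0.593%. Il1b, Cybb and Ccl5 had log2 fold changes of 2.57, 2.68 and 2.5 there. Ikzf1, called in the pilot, was at 0.094 and Tgfa at −0.29. Cspg5 was called in both cohorts with opposite signs (0.95 and −1.80). Of the 1819 equal genes, 1652 had an estimate within 1.5-fold there and 7 (0.385%) were called. The 7 included Prrc2c, Midn, Sept8, Pim3 and Tagap, with log2 fold changes of −0.068, 0.076, 0.053, 0.05 and −0.011 in the pilot and 1.01, 1.32, 1.06, 1.03 and 1.07 in the second cohort. For no gene did the regional difference itself differ between the cohorts at an adjusted p under 0.05 (limma interaction, 14053 genes), and 771 had an unadjusted p under 0.05. H2-Ab1, with 1.72 in the pilot and 3.19 in the second cohort, was among these 771.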

How the data were processed

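RNA of acutely isolated CD11b-selected cells was read by a bulk form of MARS-seq, a 3′ end method. The authors trimmed and aligned reads with STAR 2.5.3a to GRCm38 and deposited raw counts per gene, made with featureCounts 1.6.0 over Gencode M17 without strand, so reads of overlapping genes are ambiguous and multimapping reads are lost. Depth per library is given in the report, and limits from it cover counting error only. Gene symbols came from an annotation table (53620 of 53715 identifiers matched).

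Genes with under 6 counts in more than 50% of the 4 pilot libraries were removed, as in the study. The deposited counts were scaled by TMM (edgeR 4.0.16) and tested with voom and limma 3.58.1 (R 4.3.3), region as the single term, two-sided, called at an unadjusted p under 0.01, with Benjamini-Hochberg adjustment over all tested genes. Well counted genes had 100 counts or more in each library, and those whose 95% interval lay within 1.5-fold were named equal. The 4 settled libraries of the second cohort were fitted apart and in an interaction model, and the 2 libraries whose labels name both regions were left out. The scripts were tested on simulated data.

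Members and gene lists were chosen with earlier results of these data known. Named were, in each direction, the 10 largest changes and the 6 smallest p among called genes with at least 10 counts in each library of the higher region and no overlap, the 12 equal genes of the highest level, the 6 widest gaps within each region, the genes of proteins that the study names, and of each list described the called members and up to 4 of the highest level; symbols that start with Gm and a digit, end in Rik or are bare identifiers were not named under the first, second and gap rules. Other list members named in the text, and Cspg5 and the 5 equal genes called in the second cohort, were chosen after their values were seen. The replicate numbers came from the titles and no label ties a number to a mouse. Deviations of same-numbered libraries from their region means correlated at −0.025 over all tested genes, and no pairing was used. A correlation over all genes cannot settle pairing. Among the 6 widest gaps of the midbrain, Pomc, Hspa1b, Ttr, Hspa1a and Cyp2f2 differed in the same direction between the replicates of both regions. Ccn3 did not. Among the 6 of the striatum, Hspa1b and Rps25 did so, and Atp13a4, mt-Co1, Cyp2j6 and Etnppl did not. Whether libraries of the same number share a mouse was not tested. Alternatives tried were DESeq2 1.42.0 and the quasi-likelihood test of edgeR, scaling to library size, no filter and a stricter one, thinning to the smallest library, quality weights, a replicate block, leaving out each library, and other limits of equality. Some genes that the rule selects are not reported here. Promoter sequences are those of RefSeq on GRCm38.p6.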

Additional observations from a re-analysis of the deposited data

How the results depend on the processing

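The 395 called genes of the pilot numbered 334 to 456 under 7 alternatives and 822 without a filter on low counts (24002 genes tested). Leaving out 1 library gave 108 to 2445 called genes. The share of called genes that were higher in the midbrain was 79.2%, and it was 68.2% with quality weights, 54.2% without Str replicate 1 and 92.9% without Mdb replicate 2. None of the 395 genes turned direction under any of the 12 alternatives, which was largely set in advance as the regions did not overlap in any of them. The count at an adjusted p under 0.05 was the least stable: 1 in the pilot by limma, 0 by edgeR, 103 by DESeq2, 6 with scaling to library size, 101 without a filter, 4 with at least 10 counts in every library, 8 with quality weights, and 0 to 2269 when 1 library was left out. With the replicate number as a replicate block, 401 genes were called (323 of the 395) and 10 had an adjusted p under 0.05, but the numbers were not shown to pair libraries. The 1819 equal genes became 1032 by DESeq2, 0 to 2579 when 1 library was left out, 0 with a stricter limit of equality and 5432 within 2-fold. With 1 library left in the midbrain no interval was narrow enough. The cause of the other shifts was not tested. Thinning to the smallest library left 1836 equal genes. Where counts in a region lay near the floor of 3, the size of the fold is not set by the data.

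Il1b was called in all 12 alternatives and had an adjusted p under 0.05 (limma, edgeR or DESeq2) in 9, with its highest adjusted p at 0.638. H2-Ab1 and Cybb were called in all 12. The median of the 47 lists changed sign in 12 without Str replicate 2, in 7 without Str replicate 1, in 6 without Mdb replicate 1, in 3 without Mdb replicate 2, in 2 with library size scaling, in 2 with the stricter filter, in 1 with edgeR and in 0 with the other 5 alternatives.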
